A study of Mus musculus with 12 samples.

Results

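The CpGs described here are those that the deposited lists of differential methylation assign to a Hox gene, with the CpG at most 50000 bp from the transcription start site (TSS) of that gene. They were found by gene name, and 28 of the 31671 listed entries over 5 lists met the rule. The 28 entries fell on 20 distinct CpGs near 10 of the 39 mouse Hox genes and in 7 paralogue groups. The genes were Hoxa10, Hoxa11, Hoxa13, Hoxb1, Hoxb9, Hoxc4, Hoxc10, Hoxd9, Hoxd10 and Hoxd12. The other 29 had no entry that met the rule. Among them Hoxb6, Hoxb7 and Hoxb13 were named by DKO entries that could not be tied to a position by the rule, and Hoxc13 only by a CpG outside the window. Of all 21900 RefSeq protein-coding genes, 29.1% had an entry within the same distance in the 4 lists that set a knockout against WT. Hoxd10 was only in the list that sets Tet2 KO against Tet1 KO. With so few genes, no difference from the share over all genes was read.

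Hox genes encode homeodomain transcription factors that assign position along the body axis. In the mouse they lie in 4 clusters, in which all genes are transcribed in the same direction and are numbered from paralogue group 13 at the upstream end to group 1 at the downstream end, and genes of low number are activated earlier and further anterior in the embryo. In embryonic stem cells (ESCs) the clusters are largely silent, bound by Polycomb proteins and poor in DNA methylation, and their activation is an early step of patterning. Tet1, Tet2 and Tet3 are dioxygenases that oxidise 5-methylcytosine to 5-hydroxymethylcytosine, a step on the way to unmethylated cytosine.

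The study compared DNA methylation in undifferentiated mouse ESC clones by reduced representation bisulfite sequencing (RRBS), which reads CpGs near the CCGG sites cut by MspI. The groups were 3 Tet1-/- clones (Tet1 KO), 2 Tet2-/- clones (Tet2 KO), 2 clones without Tet1 and Tet2 (DKO), 2 clones without Tet1, Tet2 and Tet3 (TKO) and 3 WT clones. All 12 clones came from 1 parental line of 129/SVj origin (129 derived in the labels) that carries an Oct4:IRES:EGFP reporter, were grown on gelatin with LIF, and, apart from WT, were edited with CRISPR/Cas9 guides that leave small indels. At some edited loci only a single mutant allele was found, so a larger lesion on the other allele is possible there. The labels disagree for 3 libraries (DKO replicate 1 and the TKO replicates), whose genotype entry differs from their title, and they were grouped by title.

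Each value, computed by the authors, is a methylation difference at a CpG between 2 groups in percentage points, with positive values for higher methylation in the first-named group. The clones of a group were combined in that value, so no spread between clones could be given and no test of replicates was run here. Every listed CpG had passed thresholds the authors set for coverage, significance and size of the difference, and no list held an absolute difference below 25.002 points. Coverage, levels and q-values for each CpG were not analysed here, which leaves the error of a value unknown. A CpG missing from a list may have had too few reads, too small a difference or too high a q-value, and these cannot be told apart. The identity of the cells could not be checked against ESC markers, since the lists hold differences and no levels. The 4 knockout lists share the WT clones, so their values are given side by side and agreement between them was not counted as repetition.

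The sequences around the CpGs that carry most of the values are given here to show their setting. They are forward-strand stretches of the NCBIM37 (mm9) reference in lower case, with the listed CpGs in capitals, and each is named by gene and by distance from the TSS, negative upstream. The forward strand is the coding strand of Hoxb, Hoxc and Hoxd, and the template strand of Hoxa. The first 4 lie upstream of Hoxc10, the gene with the most entries, the next 3 at Hoxb9, the next 2 in the Hoxb1 homeobox exon, the next 2 in untranslated parts of Hoxd12, and the last upstream of Hoxa11.
Hoxc10, -4156 bp, chr15:102793031-102793112, forward strand: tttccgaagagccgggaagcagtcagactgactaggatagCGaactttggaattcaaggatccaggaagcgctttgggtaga
Hoxc10, -4073 bp, chr15:102793114-102793195, forward strand: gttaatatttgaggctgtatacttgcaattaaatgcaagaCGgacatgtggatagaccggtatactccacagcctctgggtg
Hoxc10, -1322 bp, chr15:102795865-102795946, forward strand: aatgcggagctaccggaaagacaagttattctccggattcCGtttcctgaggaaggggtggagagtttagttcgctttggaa
Hoxc10, -1225 and -1221 bp, chr15:102795962-102796043, forward strand: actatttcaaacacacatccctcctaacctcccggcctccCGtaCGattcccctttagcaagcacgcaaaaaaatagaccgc
Hoxb9, -1814 bp, chr11:96130790-96130871, forward strand: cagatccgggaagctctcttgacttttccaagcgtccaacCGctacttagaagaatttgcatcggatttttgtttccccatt
Hoxb9, -1741 bp, chr11:96130863-96130944, forward strand: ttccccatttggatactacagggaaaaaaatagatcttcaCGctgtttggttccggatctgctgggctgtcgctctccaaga
Hoxb9, +3341 bp, chr11:96135945-96136026, forward strand: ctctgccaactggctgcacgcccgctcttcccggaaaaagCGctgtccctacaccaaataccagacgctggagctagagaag
Hoxb1, +1112 bp, chr11:96228144-96228225, forward strand: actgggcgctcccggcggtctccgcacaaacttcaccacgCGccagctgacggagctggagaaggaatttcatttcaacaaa
Hoxb1, +1163 bp, chr11:96228195-96228276, forward strand: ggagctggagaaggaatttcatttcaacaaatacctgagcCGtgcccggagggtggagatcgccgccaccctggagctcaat
Hoxd12, +56 bp, chr2:74513112-74513141, forward strand: gttgcgagcacagcCGaggccctttgttgg
Hoxd12, +1391 bp, chr2:74514447-74514476, forward strand: tttccggttttcaaCGtgttctttttcttt
Hoxa11, -3587 and -3592 bp, chr6:52199356-52199437, forward strand: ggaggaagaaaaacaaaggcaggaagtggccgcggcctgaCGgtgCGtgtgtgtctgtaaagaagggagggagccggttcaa

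Over single lists the Hox CpGs did not go one way. In Tet1 KO against WT, 1 of 4 Hox CpGs was higher, while 66.2% of the 4032 listed CpGs within 50000 bp of any TSS were higher. In Tet2 KO against WT, 6 of 7 were higher, against 78.5% of 5043. In DKO against WT, 3 of the 4 CpGs that could be placed were higher, against 69.3% of 3914, and in TKO against WT it was 3 of 7, against 61.6% of 5818. In the direct comparison of Tet2 KO against Tet1 KO, 6 of 6 were higher in Tet2 KO, against 68.8% of 3003. With 4 to 7 Hox CpGs in a list, several of them neighbours, these shares are descriptions of the listed CpGs only, and the TKO share depended on how members were chosen: counted by position in the clusters, 10 of 15 were higher in TKO.

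**Figure D1:**
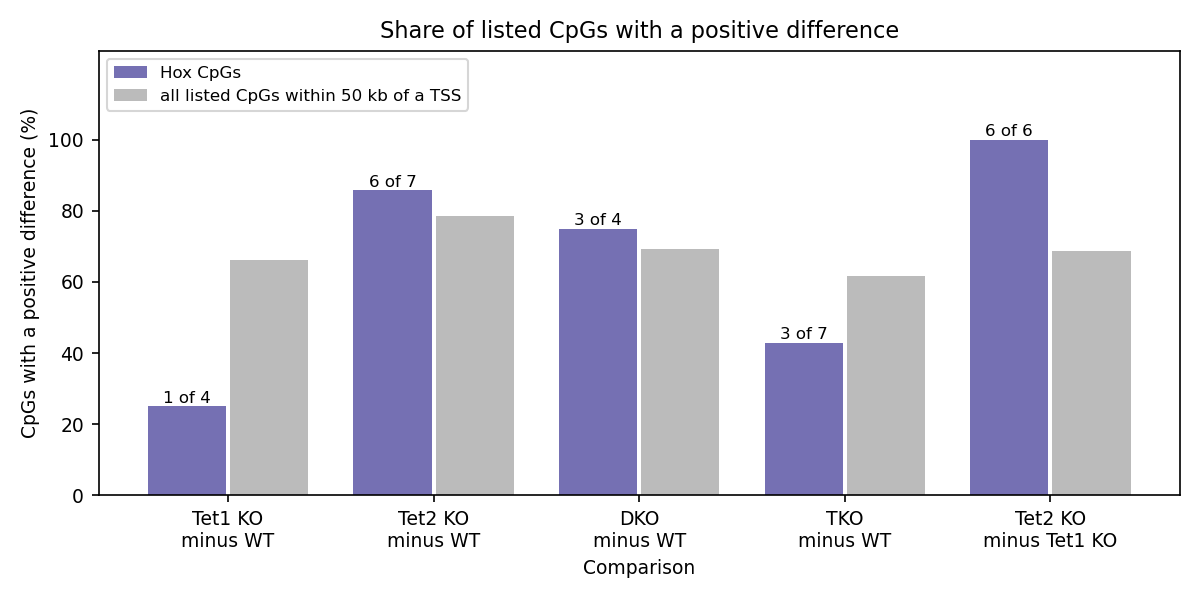
Share of CpGs with a positive difference (y axis, percent) in each comparison, for the Hox CpGs (purple bars, with their counts above) and for all listed CpGs within 50 kb of a TSS (grey bars). By gene name, the Hox share was below the grey bar in Tet1 KO (1 of 4) and TKO (3 of 7) and above it in Tet2 KO (6 of 7), DKO (3 of 4) and Tet2 KO against Tet1 KO (6 of 6).

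The sizes of the differences also varied between lists. The median was -28.8 points for the 4 Hox CpGs in Tet1 KO, ranging from -34.0 to 48.9, while all listed CpGs in the window had a median of 28.7. In Tet2 KO the median was 30.6 (range -50.4 to 47.2), against 33.7 over all. In DKO it was 53.1 (range -38.1 to 66.8), against 31.7 over all, and in TKO it was -25.9 (range -58.8 to 34.6), against 29.0 over all. In Tet2 KO against Tet1 KO the Hox median was 45.5 (range 26.7 to 54.8), against 30.8 over all.

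**Figure D2:**
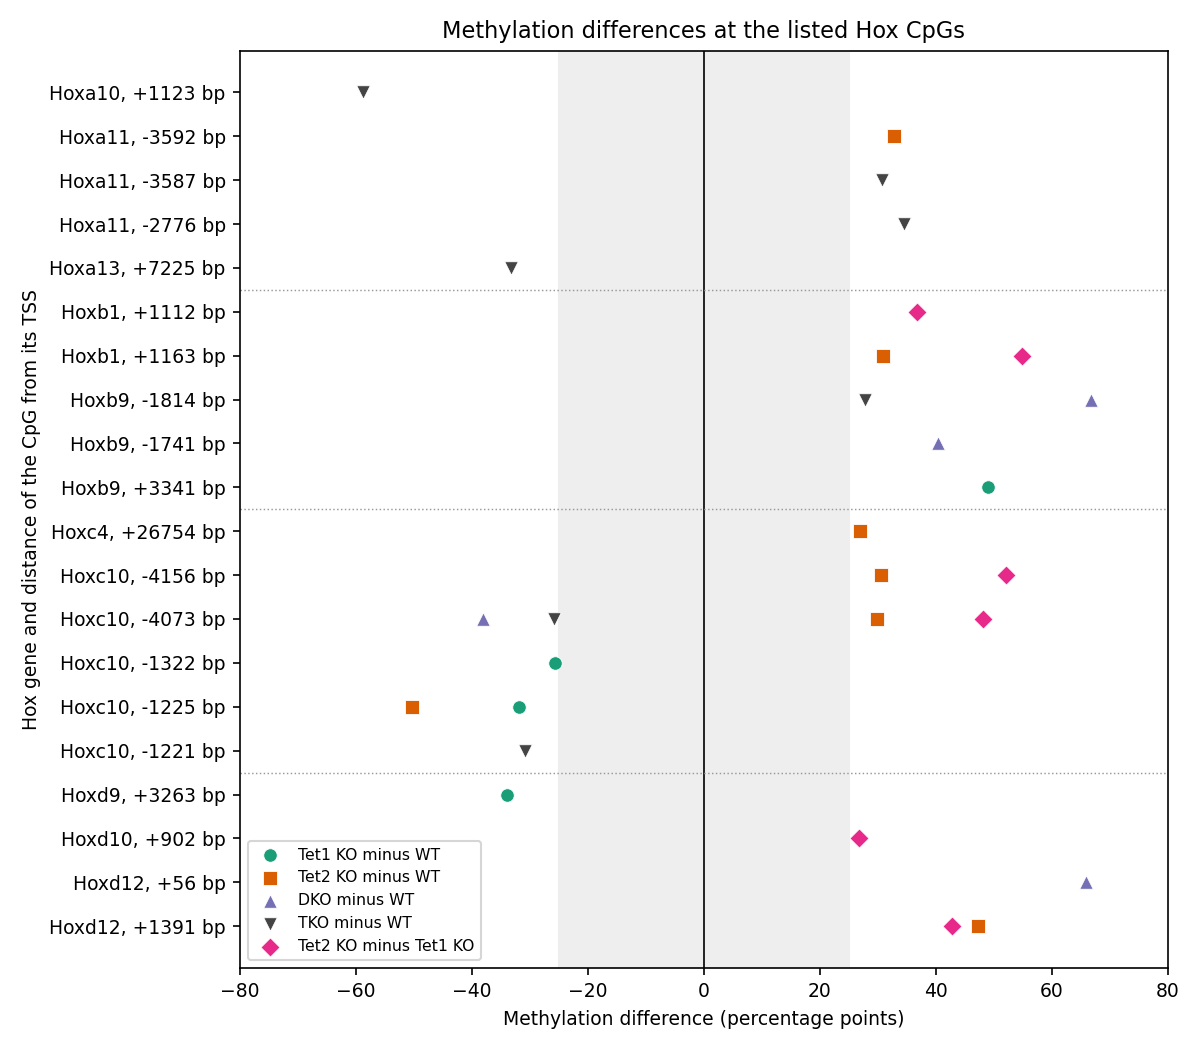
Methylation difference (x axis, percentage points) at each of the 20 listed Hox CpGs (rows, named by gene and distance from its TSS), with a marker for each comparison in which the CpG was listed. The grey band marks absolute differences under 25 points, which the lists do not hold, and dotted lines part the clusters. Hoxb has markers only on the right, while at Hoxc10 they lie on both sides.

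Hoxc10, a posterior gene of paralogue group 10 with a part in hindlimb and lumbar patterning, had the most entries. Among the 4 knockout lists it had 8, of which 2 were higher and 6 lower, at 5 CpGs, all upstream of the TSS and outside annotated genes. The CpG at -4156 bp (chr15, 102793071) was listed at 30.6 points in Tet2 KO. Its neighbour at -4073 bp (chr15, 102793154) was listed at 29.8 points in Tet2 KO, -38.1 in DKO and -25.9 in TKO. This was the only one of the 20 CpGs listed with both signs: higher than WT with Tet2 alone deleted, and lower than WT in both combined knockouts.

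Closer to the Hoxc10 start the listed values were all negative. The CpG at -1225 bp (chr15, 102796002) was listed at -31.9 points in Tet1 KO and -50.4 in Tet2 KO, the only loss at a Hox CpG in Tet2 KO. The CpG at -1221 bp (chr15, 102796006), which is in the same printed stretch, was listed at -30.8 in TKO. The CpG at -1322 bp (chr15, 102795905) was listed at -25.7 in Tet1 KO. In Tet2 KO clones the Hoxc10 upstream region therefore held gains at -4156 and -4073 bp and a loss at -1225 bp. The remaining entry of the Hoxc cluster was in Tet2 KO at 26.8 points, 26754 bp downstream of the start of Hoxc4 (chr15, 102891580), an anterior gene at the other end of the cluster. It was the farthest Hox CpG inside the 50000 bp limit.

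Hoxb9, a posterior gene of paralogue group 9 with a role in thoracic patterning, had 4 entries among the knockout lists, all positive. The CpG at -1814 bp (chr11, 96130830), outside annotated genes, was listed at 66.8 points in DKO and 27.7 in TKO. In DKO it was the largest gain of a placed Hox CpG. The CpG at -1741 bp (chr11, 96130903), in a CpG island, was listed at 40.3 in DKO only. In Tet1 KO a different CpG of Hoxb9 was listed, at 48.9 points, in coding exon 2 at +3341 bp (chr11, 96135985). It was the only gain among the 4 Hox CpGs of the Tet1 KO list, and lies in a CGC arginine codon, 43 codons before the WFQNRR motif of the DNA-binding homeodomain.

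Hoxb1, an anterior gene needed for hindbrain segment identity and a known early target of retinoic acid, had 3 entries at 2 CpGs in coding exon 2. The CpG at +1163 bp (chr11, 96228235) was listed at 30.9 points in Tet2 KO against WT and at 54.8 in Tet2 KO against Tet1 KO. The CpG at +1112 bp (chr11, 96228184) was listed only in Tet2 KO against Tet1 KO, at 36.7. Both lie within the homeobox, in arginine codons (CGT at +1163 bp and CGC at +1112 bp) that come 20 and 37 codons before the WFQNRR motif. All 5 Hoxb entries of the knockout lists that carry a Hox name were thus gains, from 27.7 to 66.8 points. Each of the 4 knockouts had at least 1. Over all knockout entries within 50000 bp of a TSS 68.8% were higher, and 5 entries are too few to read a difference. Counted by position, 3 of the 34 Hoxb entries of the knockout lists were losses.

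Hoxd12, a posterior gene expressed in the developing digits and hind body, was listed at its start and at its end. The CpG at +56 bp (chr2, 74513126), annotated as promoter and in GENCODE as untranslated exon, was listed at 65.9 points in DKO. It was the Hox CpG nearest to a TSS. The CpG at +1391 bp (chr2, 74514461) in the 3' untranslated region was listed at 47.2 points in Tet2 KO against WT, the largest Hox gain of that list, and at 42.8 in Tet2 KO against Tet1 KO on the reverse-strand cytosine. Hoxd9, at its transcript end (+3263 bp; chr2, 74539083), was listed at -34.0 in Tet1 KO, the largest Hox loss of that list. Hoxd10, in a CpG island in intron 1 (+902 bp; chr2, 74530850), was listed only in Tet2 KO against Tet1 KO, at 26.7.

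The Hoxa cluster was listed almost only in TKO. Hoxa10, a gene known from uterine, limb and blood cell development, was listed at -58.8 points in intron 1 (+1123 bp; chr6, 52189730), the largest loss of any Hox CpG. Hoxa13, needed for limb ends and the urogenital tract, was listed at -33.3 in a CpG island at +7225 bp (chr6, 52203649). Hoxa11, which acts in forearm and kidney development, had 3 entries, all positive. They were 34.6 points at -2776 bp (chr6, 52198585) and 30.6 at -3587 bp (chr6, 52199396) in TKO, and 32.7 at -3592 bp (chr6, 52199401) in Tet2 KO. These CpGs lie in intron 4 and exon 5 of the noncoding transcript NR_015348, not in Hoxa11 itself. In TKO the Hoxa entries were therefore 2 gains and 2 losses, the gains upstream of Hoxa11 and the losses on either side of it.

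By paralogue group, most of the entries that the rule placed carried the name of a posterior gene. Groups 9 to 13 held 24 of the 28 entries, at 8 of 16 genes, with 15 higher and 9 lower. Groups 1 to 4 held 4 entries, all higher, at 2 of 12 genes, and groups 5 to 8 held none at 11 genes. This count leaves out the DKO entries named for Hoxb6 and Hoxb7, which the rule could not place. For comparison, 29.1% of all protein-coding genes had an entry in the 4 knockout lists, and 68.8% of entries were higher. The block counts cover all 5 lists, with the direct comparison, so the sets are not alike. Hoxd10, for one, counts only through the direct comparison. The blocks hold too few genes and entries to read a difference from these shares. By position, DKO also had CpGs of 50 and 53.8 points (chr11, 96147660 and 96154982) downstream of Hoxb9. The CpGs named for Mir10a and Mir10b lie downstream of the group 9 genes of their clusters as well. Those named for Mir10b are annotated to intron 1 of the transcript NM_010468. Downstream of Hoxd9, LOC102634401 named gains of 30.03 and 42.2 points in DKO and 55 in Tet2 KO. In Tet2 KO against Tet1 KO it named values of 55 and -34.9. The posterior majority therefore holds only for entries that carry a Hox name. Group 10 alone held 12. Most of these were upstream of Hoxc10, with 8 in the knockout lists, and the others were single entries of Hoxa10 and Hoxd10. In the knockout lists the Hoxa cluster had 3 gains and 2 losses, Hoxb 5 gains and 0 losses, Hoxc 3 gains and 6 losses, and Hoxd 2 gains and 1 loss. The clusters, with 50000 bp on either side, hold 1602, 1583, 1202 and 1589 CpGs within 40 bp of a CCGG site in the order Hoxa, Hoxb, Hoxc and Hoxd, so each had a similar number of CpGs that RRBS could reach. How many of them were read deeply enough is unknown.

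The direct comparison of Tet2 KO against Tet1 KO listed 6 Hox CpGs, and all were higher in Tet2 KO. At Hoxc10 the values were 52.1 points at -4156 bp and 48.2 at -4073 bp. There Tet2 KO was listed above WT by 30.6 and 29.8 points, and Tet1 KO was not listed, which does not make it equal to WT. The CpG at -1225 bp, listed below WT in both single knockouts, was not in the direct list. The other values were those given for Hoxb1 (54.8 and 36.7), Hoxd12 (42.8) and Hoxd10 (26.7). This list uses the same Tet1 KO and Tet2 KO clones as the lists against WT. It also holds reverse-strand positions, which those lists do not, so its values and theirs may not be measured alike.

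The setting of the Hox CpGs was described beside that of the listed CpGs within 50000 bp of any TSS. All 28 Hox entries lay within 40 bp of a CCGG site (at most 36 bp, median 16.5), as did 98.3% of the 21791 entries on assembled chromosomes. Within 2000 bp of the TSS lay 15 entries (53.6%), against 17.1% of all 21810. The 50000 bp limit holds for both sets, and the close spacing of Hox starts keeps the distance short for Hox entries. Outside annotated genes lay 15 (53.6%), against 34.9% of all 21810. The CpG island label was on 3 (10.7%), against 1.31%. Each entry has a single detailed label, and among the Hox entries the island label stood only in introns and outside genes. Island CpGs in promoters or exons may therefore be missing from these shares, which are not the shares in CpG islands. None of the 28 carried a repeat label, against 19.5% of all. The 201 bp around a Hox CpG held a median of 8.0 CpGs (range 4 to 20), against 6.0 over all. No test was made of these shares, since several entries share a CpG or lie side by side.

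The lists name the nearest TSS, so a CpG between Hox genes can carry the name of a microRNA or an uncharacterised transcript. Counted by position, from 50000 bp before the first to 50000 bp after the last Hox start of a cluster, the 5 lists held 72 entries. The 4 knockout lists held 62, of which 50 were higher and 12 lower. This count needs no gene name, so all DKO positions enter it. Across all listed CpGs of a list, 65.6% were higher in Tet1 KO, 77.7% in Tet2 KO, 64.8% in DKO and 58.6% in TKO against WT, and 67.0% in Tet2 KO against Tet1 KO. In the Hoxb cluster the higher CpGs were 3 of 4 in Tet1 KO, 9 of 10 in Tet2 KO, 12 of 12 in DKO, 7 of 8 in TKO and 3 of 4 in Tet2 KO against Tet1 KO. In the Hoxd cluster they were 0 of 1 in Tet1 KO, 6 of 6 in Tet2 KO, 5 of 5 in DKO and 3 of 4 in Tet2 KO against Tet1 KO, with none listed in TKO. The Hoxc cluster had 0 of 2 higher in Tet1 KO, 3 of 4 in Tet2 KO, 1 of 2 in DKO, 0 of 2 in TKO and 2 of 2 in the direct comparison, and the Hoxa cluster 1 of 1 in Tet2 KO and 3 of 5 in TKO. Hoxb thus held 34 of the 62 knockout entries, at 23 CpGs, and 31 of the entries were higher. The distinct listed CpGs were 1.45% of the Hoxb CpGs within 40 bp of a CCGG site. This share was 0.37% in Hoxa, 0.58% in Hoxc and 0.69% in Hoxd, and it was not computed over the whole genome. Several of the CpGs lie a few bp apart and the lists share the WT clones, so no concentration in Hoxb was read.

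**Figure D3:**
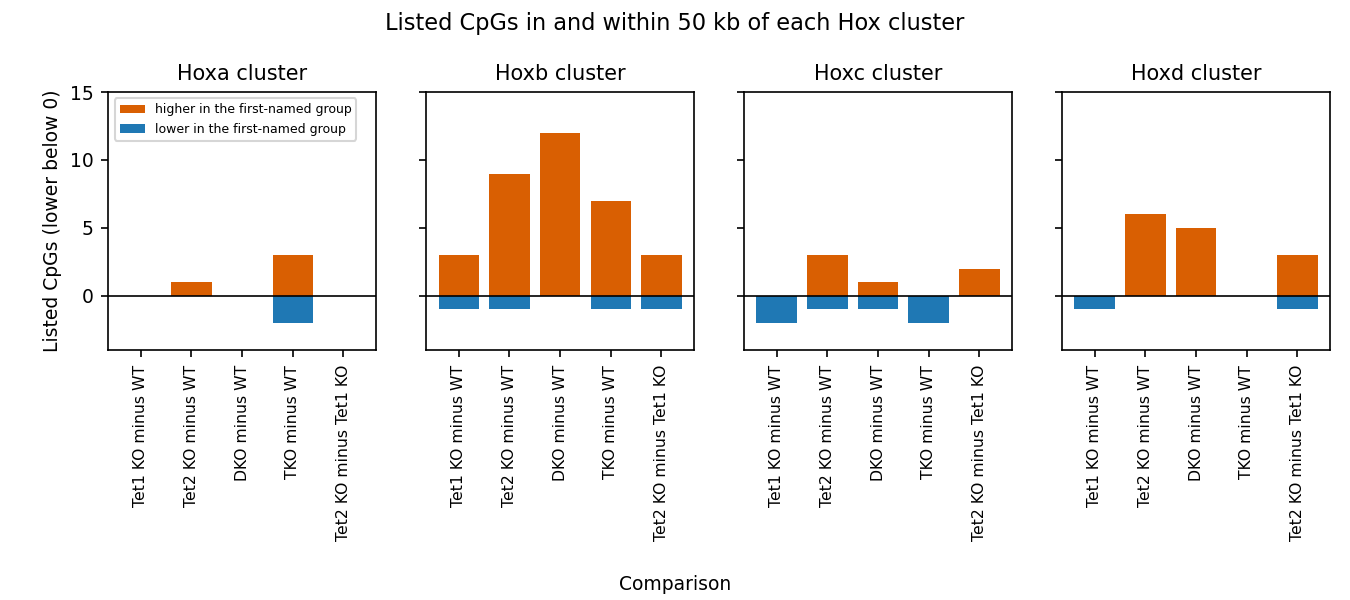
Number of listed CpGs in each Hox cluster and the 50 kb around it (y axis), higher (orange, above 0) or lower (blue, below 0) in the first-named group, for the 5 comparisons on the x axis. The tallest bar is the 12 CpGs of the Hoxb cluster that were higher in DKO, with none lower.

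The stretch upstream of Hoxb9 held the most of the Hoxb entries. At a CpG named for the predicted gene Gm53 (chr11, 96117611) the difference was 92.7 points in Tet2 KO, 30.7 in DKO, 30.8 in TKO and 72.9 in Tet2 KO against Tet1 KO. At the CpG -1072 bp from Mir196a-1 (chr11, 96125406) it was 38.01 in Tet2 KO, 52.1 in DKO and 65.6 in TKO, and at -1070 bp (chr11, 96125408) it was 47.6 in Tet2 KO and 51.6 in TKO. Tet1 KO had a single entry near this microRNA, 28.9 points at -1664 bp (chr11, 96124814). The exceptions in the Hoxb cluster were -32.7 points in Tet1 KO near Gm11538, -30.0 in TKO at a Gm53 CpG (chr11, 96093332) listed at 25.3 in Tet2 KO, and -34.4 in Tet2 KO near Gm11529 at a CpG listed at 35.0 in Tet1 KO. That last CpG was at -54.5 in Tet2 KO against Tet1 KO.

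**Figure D4:**
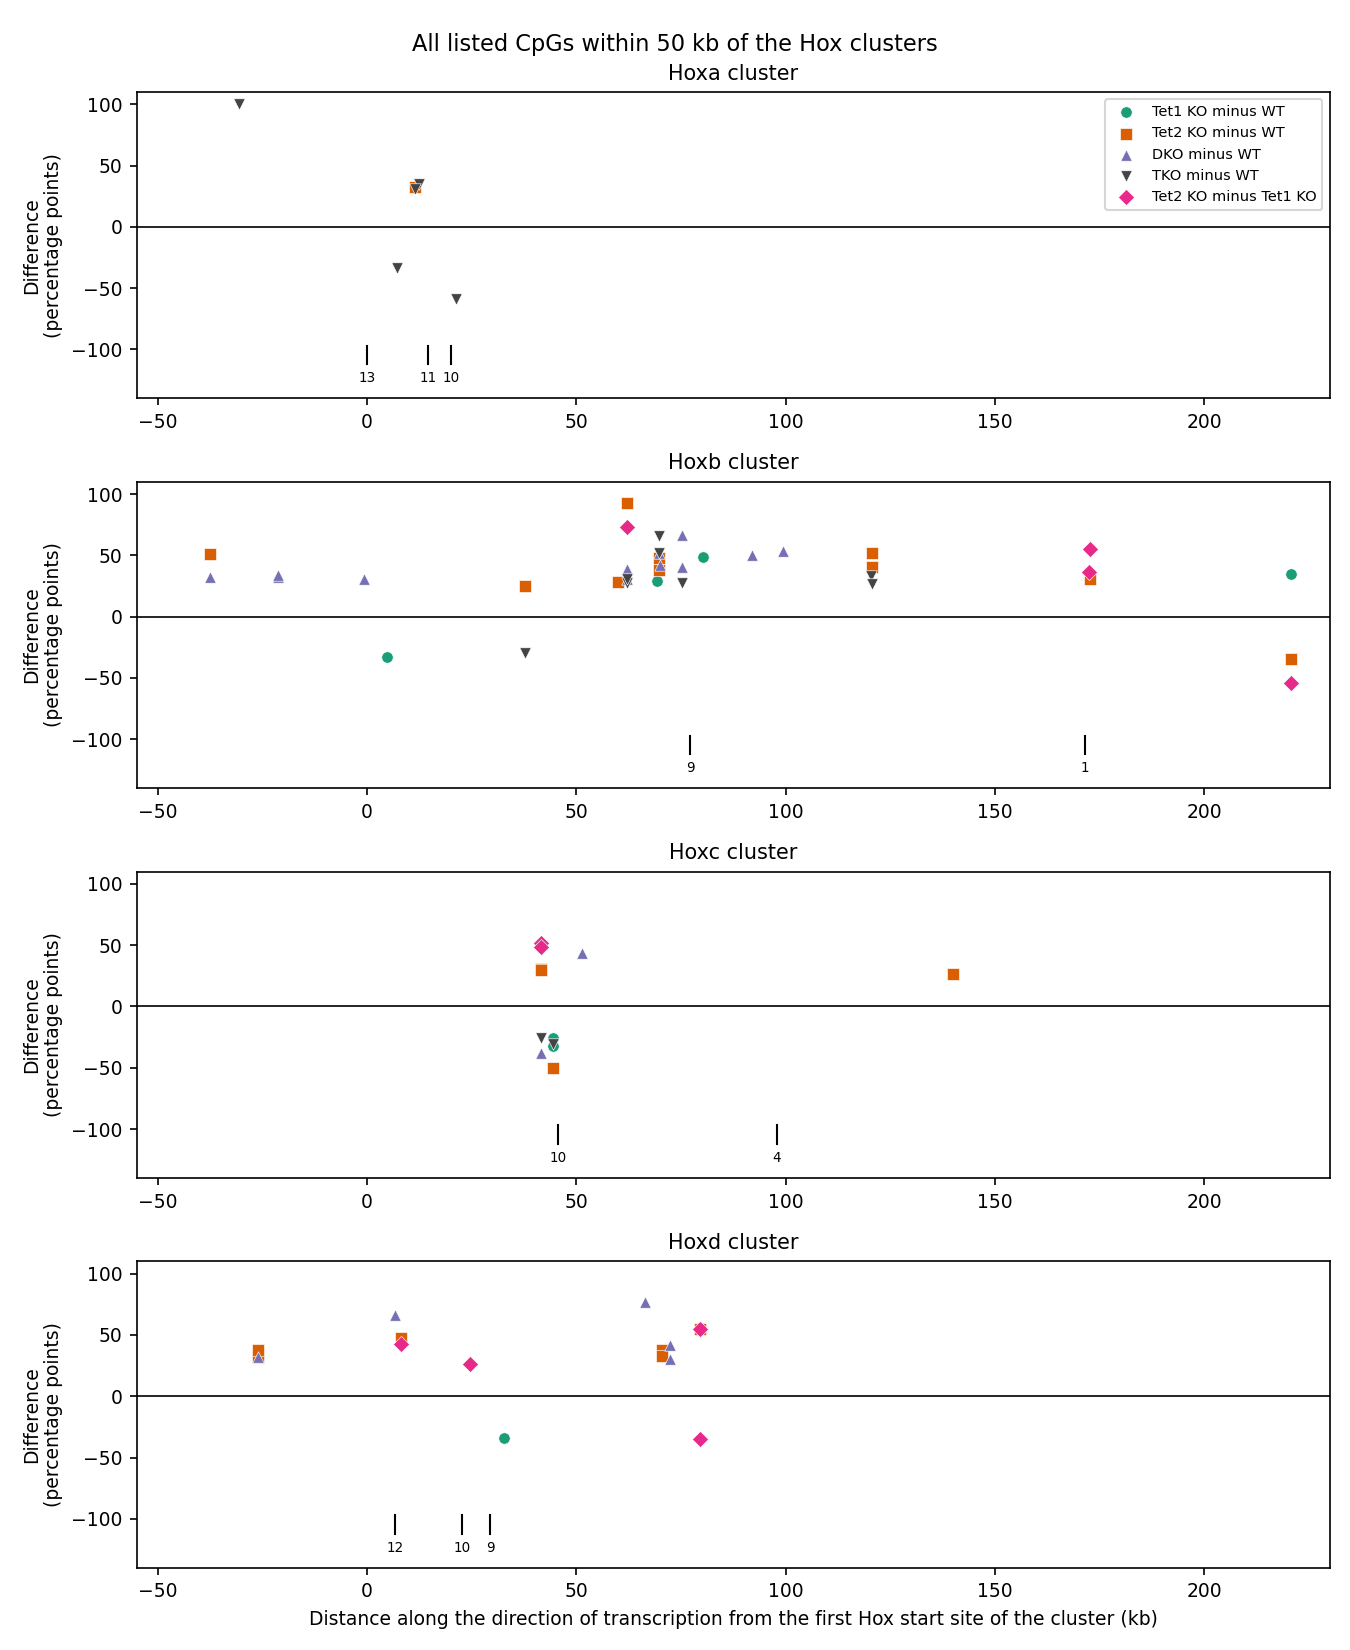
Methylation difference (y axis, percentage points) of every listed CpG against its distance in kb from the first Hox start of the cluster, read in the direction of transcription (x axis), with a marker for each comparison. Ticks under each panel mark the most upstream GENCODE start of the Hox genes with a listed CpG, with their paralogue numbers. Gains from several knockouts stand together upstream of Hoxb9, and gains and losses stand together upstream of Hoxc10.

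Several Hox transcripts are repressed by miR-196 and miR-10, microRNAs encoded in the clusters. Their mature sequences are given from RefSeq (GRCm38.p6), 5' to 3', with the seed in capitals, because 14 knockout entries carried the name of Mir10a, Mir10b or Mir196a-1. The miR-10a and miR-10b seeds are the same, ACCCUGU, and miR-196a has AGGUAGU.
miR-10a-5p: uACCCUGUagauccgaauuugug
miR-10b-5p: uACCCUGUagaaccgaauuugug
miR-196a-5p: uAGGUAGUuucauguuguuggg

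All 14 of these entries were higher in the knockout, where 68.8% of all knockout entries within 50000 bp of a TSS were. They name 3 of 18 noncoding genes of the clusters, several lie a few bp apart, and the lists share the WT clones. Other transcripts that name cluster CpGs, such as Gm53, Gm11538 and Gm11529, were not among the 18. Those name losses as well as gains, so the single direction depends on which genes were listed. No difference from that share was therefore read. The 14 entries were 1 in Tet1 KO, 6 in Tet2 KO, 3 in DKO (of those that could be placed) and 4 in TKO. At Mir10a, the CpG at -2328 bp (chr11, 96176151) was listed at 40.6 points in Tet2 KO and 26.9 in TKO. At -2321 bp (chr11, 96176158) Tet2 KO was listed at 51.9, and at -2373 bp (chr11, 96176106) TKO at 33.2. At Mir10b in the Hoxd cluster the values were 37.5 and 33.0 in Tet2 KO at +12687 and +12693 bp, and 77.2 in DKO at +8634 bp (chr2, 74572761). The CpGs that were listed in more than 1 knockout, or in pairs, are shown in capitals in these forward-strand mm9 stretches.
Mir196a-1, -1072 and -1070 bp, chr11:96125366-96125447, forward strand: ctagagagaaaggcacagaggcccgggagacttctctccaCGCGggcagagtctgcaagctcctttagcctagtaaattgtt
Mir10a, -2328 and -2321 bp, chr11:96176111-96176192, forward strand: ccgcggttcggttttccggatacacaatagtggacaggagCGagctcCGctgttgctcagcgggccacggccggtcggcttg
Mir10b, +12687 and +12693 bp, chr2:74576774-74576855, forward strand: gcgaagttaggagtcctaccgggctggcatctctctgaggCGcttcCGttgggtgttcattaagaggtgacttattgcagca

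Other genes of the Hox pathway were counted from gene lists with the same 50000 bp limit, and in DKO only from entries that could be placed. For comparison, 29.1% of the 21900 RefSeq protein-coding genes had an entry in the 4 knockout lists, and 68.8% of the 18807 entries within the limit were higher. Of 16 genes listed as neighbours of the clusters, 7 had entries in the knockout lists, 18 higher and 7 lower, a direction close to that of all entries. Not all of them are adjacent to a cluster. The Hnrnpa3 entry is at chr2, 75447471, while the 50000 bp flank of the Hoxd cluster ends at 74651037. Evx1, the homeobox gene beside Hoxa13, had both signs at its promoter: at -753 bp (chr6, 52262739) it was listed at -44.0 points in Tet1 KO, 31.6 in DKO and 31.5 in TKO, and at -571 bp (chr6, 52262921) at 72.0 in Tet2 KO and -28.0 in TKO. Farther out, at -21950 bp (chr6, 52241542), Evx1 had 100 points in TKO, the largest value inside the limits of a cluster. Evx2, beside Hoxd13, was listed at 31.7 in Tet2 KO and in DKO at +17305 bp, and at 38.1 in Tet2 KO at +17233 bp.

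Hox proteins bind DNA with TALE homeodomain cofactors of the Pbx, Meis and Pknox families. Of 9 such genes 4 were listed, with 8 entries, all higher: 0 in Tet1 KO, 4 in Tet2 KO, 2 in DKO and 2 in TKO. The shares over all genes and all entries were 29.1% and 68.8%, and 8 entries are too few to read a difference from them. Pbx2 was listed at 39.05 points in Tet2 KO (+2095 bp) and at 59.0 and 63.3 in DKO (+1568 and +1584 bp). Meis1, a partner of posterior Hox proteins, was listed at 42.9 (+9270 bp) and 36.2 (+568 bp) in Tet2 KO and at 66.7 in TKO (-1782 bp). Meis3 had 33.3 points in Tet2 KO, and Pknox1 had 100 in TKO.

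Upstream regulators of the clusters include retinoic acid receptors, the retinoic acid degrading Cyp26 enzymes and the Cdx factors. Of 15 such genes 7 were listed, with 13 entries higher and 1 lower, where 68.8% of all entries were higher and 29.1% of all genes listed. Cyp26a1 was listed at 45.2 and 44.9 points in Tet2 KO (-2253 and -2238 bp) with 30.2 in its exon 3 (+1164 bp), at 46.8 and 32.4 in DKO and at 54.7 and 46.2 in Tet2 KO against Tet1 KO. The lower entry was at Cdx1 (-3283 bp), with -39.9 points in TKO, while the same CpG was at 49.5 in Tet2 KO. The ParaHox genes, relatives of the Hox genes outside the clusters, had 2 of 3 genes listed, with 4 entries higher and 2 lower, near the share over all entries.

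Polycomb group proteins keep Hox genes silent and Trithorax group proteins keep them active. Of 22 such genes 11 were listed, with 19 entries higher and 15 lower, of which TKO held 7 higher and 10 lower. Over all genes 29.1% were listed and 68.8% of entries were higher, or 61.6% in TKO alone. Phc2, a Polycomb subunit, was lower in every entry of the lists against WT. In its first intron it was at -30.8 and -49.3 points in Tet2 KO and at -54.2 and -37.0 in TKO, at +3968 and +3979 bp. Kmt2a, the Trithorax methyltransferase best known for keeping Hox genes on, had 30.2 and 36.2 points in TKO at 2 CpGs in exon 3.

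The 50000 bp limit left out a single CpG, -73504 bp from Hoxc13, which was listed at 32.9 points in Tet1 KO, 56.1 in Tet2 KO, 56.1 in DKO and 29.8 in TKO. Within DKO, 9 annotation entries named a Hox gene and 4 could be tied to a position. The 5 others named Hoxb13 (3 entries, the nearest at -769 bp), Hoxb6 (-5503 bp) and Hoxb7 (-300 bp). All DKO positions in the Hoxb cluster, including 5 without a gene name here, had positive differences, these 5 lying between 30.6 and 53.8 points. Across all listed CpGs of DKO against WT 64.8% were higher.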

How the data were processed

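RRBS libraries of 12 ESC clones were trimmed by the authors with Trim Galore 0.5 and mapped with Bismark 0.19.1 (mm9), as the labels state. The authors then called methylation at CpGs, tested one group of clones against another in methylKit, and assigned passing CpGs to genes with HOMER. The deposited values used here are therefore the authors' own comparisons, as other than levels: a difference in percentage points and a distance to the nearest TSS in bp. They were used because they are the only measurements in the lists. Reads were not analysed here, and 0 columns held values of a single clone.

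Entries were kept where the gene name was a Hox gene and the distance was at most 50000 bp. Positions were compared with NCBIM37 and GENCODE vM1, and reverse-strand cytosines (2036, all in the Tet2 KO against Tet1 KO list) were moved to the forward cytosine. For DKO against WT the annotation was out of row order and was tied to coordinates by the TSS of the same promoter in other lists plus the distance, which placed 5587 of 7078 entries (78.9%). The step was checked on a shuffled list. Full values were given for Hox genes with a CpG within 2000 bp, with several CpGs in a list, or in several lists, and for the largest gain and loss of each list. The members and gene lists were chosen with earlier results of these data known. The genes without an entry are counted and, in part, not reported here by name. Alternatives were a 2000 bp window, no distance limit, a minimum of 40 points, regions of CpGs within 1000 bp, membership by position, the median, merged strands and other handling of the DKO annotation. Python 3.11.15, pandas 2.3.3 and matplotlib 3.10.9 were used.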

Additional observations from a re-analysis of the deposited data

Results flagged for a closer look

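These 4 entries stand out because Tet1 KO and Tet2 KO, both set against the same WT clones, were also compared with each other, and the authors' test of that difference was passed at a CpG that was listed for Tet2 KO against WT and not for Tet1 KO. The Tet2 KO minus Tet1 KO difference was 54.8 points at the Hoxb1 exon CpG (chr11, 96228235), 52.1 and 48.2 points at the Hoxc10 upstream CpGs (chr15, 102793071 and 102793154), and 42.8 points in the Hoxd12 3' untranslated region (chr2, 74514461). Against WT, Tet2 KO was listed at 30.9, 30.6, 29.8 and 47.2 points in that order. As listed, the direct value was the larger at the Hoxb1 and both Hoxc10 CpGs and the smaller at Hoxd12. The direct list holds positions on both strands, and the lists against WT hold forward-strand positions only. The values may therefore not be measured alike, and no difference in size was read. Absence from the Tet1 KO list does not mean that Tet1 KO equalled WT, and these entries are not shown to be gains of Tet2 KO alone. The clones were combined in each value, so how many clones show the direction is unknown.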

How the results depend on the processing

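Of 62 recalculated values 19 moved by more than the allowance (1.5 times for a count, the exact 95% interval for a share, 1 SD over CpGs for a mean). With 4 to 7 CpGs that allowance is wide, and it treats neighbouring CpGs as independent. A value that stayed within it is therefore not shown to be stable. The majority direction turned within the allowance or beyond it in some settings. With a 2000 bp window the Hox CpGs numbered 2 in Tet1 KO (0.0% higher), 3 in Tet2 KO (66.7% higher), 3 in TKO (33.3%), and 100% were higher in DKO. With a minimum of 40 points 1 was left in Tet1 KO (100% higher), 2 in Tet2 KO (50% higher) and 1 in TKO (0.0% higher), and 100% were higher in DKO. Counted by position in a cluster, there were 7 in Tet1 KO, 21 in Tet2 KO, 19 in DKO, 15 in TKO and 10 in Tet2 KO against Tet1 KO, of which 42.9%, 90.5%, 94.7%, 66.7% and 80% were higher in that order. In TKO the majority thus turned from lower to higher (10 of 15, with 58.6% over all listed CpGs), and the direct comparison was at 8 of 10 in place of 6 of 6. In DKO the count was 9 with the annotation taken row by row as deposited, 9 with all annotation entries kept, and 7 with an added pairing by GENCODE starts, chosen after seeing the data, which placed the 3 Hoxb13 entries at 30.6, 33.9 and 32.3 points. The differences in count follow from how many CpGs each setting admits.

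No paired analysis was possible because the lists hold no columns of single clones, and for the same reason leaving out a clone was not run. Coverage per CpG is unknown, and the CpGs that were tested without passing were not analysed here, so the share of Hox CpGs that differed is unknown.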
